A study of Mus musculus with 6 samples.

Results

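The COMPASS complexes are the main enzymes that methylate lysine 4 of histone H3, a mark of active promoters and enhancers. Each complex holds 1 catalytic subunit, KMT2A to KMT2D, SETD1A or SETD1B, on a shared core of WDR5, ASH2L, RBBP5 and DPY30. HCFC1, or host cell factor C1, binds no DNA of its own and joins the SETD1A, SETD1B, KMT2A and KMT2B forms of the complex. The positions of HCFC1 at the genes of this machinery were therefore examined: the 6 catalytic genes Kmt2a, Kmt2b, Kmt2c, Kmt2d, Setd1a and Setd1b, and the 4 core genes Wdr5, Ash2l, Rbbp5 and Dpy30. These 10 genes were fixed by name out of 21900 protein-coding genes, and their peaks are those to which the deposited tables gave 1 of these gene names. By that rule the members held 30 of 36147 peaks in control cells, 29 of 21881 after ERRα knockdown and 20 of 12610 after HCFC1 knockdown.

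The deposited tables list HCFC1 peaks from ChIP-seq, the sequencing of DNA precipitated with an HCFC1 antibody, in Hepa1-6, a mouse hepatoma line labelled as wild type and as hepatocyte. All cells were transfected with siRNA, repeated after 48 h, for 96 h and 200 nM in total: a pool of scrambled siRNAs in the control, siRNAs against the orphan nuclear receptor ERRα (siERRa), or siRNAs against HCFC1 itself (siHCFC1). Each of the 3 conditions has 1 HCFC1 library, made from 2 pooled immunoprecipitations, and 1 IgG library that was not analysed here. No value below therefore has a replicate check and no p-value is given. Neither RNA nor protein was measured in these tables, so the extent of each knockdown is not known. For the same reason the cell type label could not be checked by expression. Among hepatocyte marker genes, Hnf4a, Foxa2 and Cebpa had a control peak centred within 1000 bp of a start, as did 44.2% of all protein-coding genes. Apoa1 and Ttr had control peaks only farther from a start and no peak after either knockdown. Alb and Afp had no peak in any list.

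The peak score is the authors' own, a whole number from 13 upwards whose scale is not stated. It was used only to rank peaks within a list, and scores of different lists cannot be compared. Sequencing depth is unknown. Peaks had a median width of 393 bp in the control list, 710 bp after ERRα knockdown and 465 bp after HCFC1 knockdown, which makes an overlap easier in the ERRα-knockdown list. Positions are on mm10 as the authors gave them. Intervals are exact binomial (Clopper-Pearson) 95% intervals and cover counting error only.

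HCFC1 peaks lay at or near the start of 6 to 10 of the 10 genes in each condition, depending on how a start-site peak is defined. A peak within 1000 bp of a start site, whatever gene the authors assigned it to, was found for 10 of 10 members in control cells (69.2 to 100%), 9 of 10 after ERRα knockdown (55.5 to 99.7%) and 9 of 10 after HCFC1 knockdown. Among the 17492 protein-coding genes with a start in the RefSeq promoter table, the same shares were 50.9%, 52.6% and 34.2%. The same 9 members, all but Ash2l, had such a peak in every list, against 32.1% of the 17492 genes. This count was added after the peaks were seen, and 3 members absent from that table (Kmt2b, Setd1b and Ash2l) took their start from the deposited distances. With the single RefSeq gene start of each member, the counts were 8, 8 and 7 of 10.

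Stricter definitions gave fewer members. The start base itself was covered for 8 members in control, 9 in the ERRα-knockdown list and 8 in the HCFC1-knockdown list. Among the 17492 genes of the promoter table the shares were 42.5%, 47.5% and 24.1%. An assigned peak centred within 1000 bp of a start was found for 8 of 10 members in each list, against 44.2%, 45.1% and 29.3% of all protein-coding genes. By the authors' promoter annotation the counts were 6, 6 and 7 of 10, against 23.5%, 22.3% and 15.3%. Any assigned peak was held by 10, 9 and 8 of 10 members, against 57.7%, 52.5% and 36.7%.

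**Figure D1:**
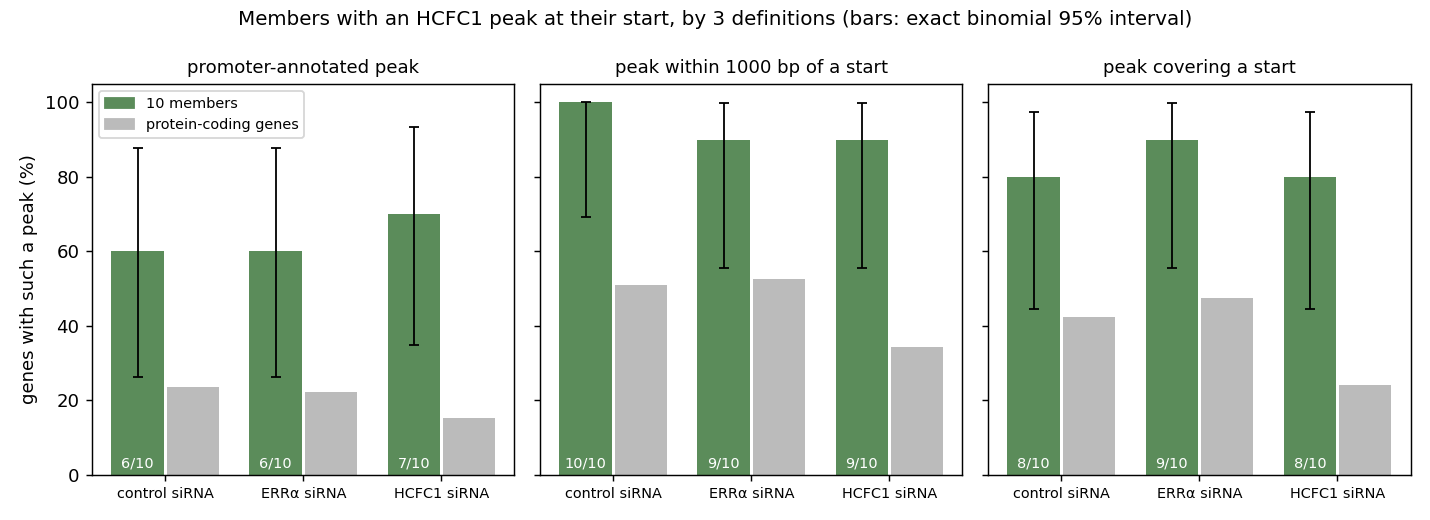
Share of genes (%) with an HCFC1 peak at their start in each list, by the promoter annotation, by a peak within 1000 bp of a start and by a peak covering a start. Green bars are the 10 members with exact binomial 95% intervals and their counts. Grey bars are all protein-coding genes for the promoter annotation, and otherwise the 17492 with a start in the RefSeq promoter table. The members lie above the grey bar in all 9 pairs, and 10 of 10 control members have a peak within 1000 bp.

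Control scores at the starts of the members ran from 40 to 2311, with catalytic genes at both ends. The highest-scoring start-site peak of Kmt2b had a control score of 2311 and ranked 277 of 36147. Kmt2d (1923), Setd1a (1656) and Rbbp5 (1267) followed, all within the first 1.91% of the list, and Kmt2a (700) lay at 3.37%. Below them came Wdr5 (281, 6.95%), Dpy30 (160, 11%), Setd1b (137, 12.5%), Ash2l (60, 26.1%) and Kmt2c (40, 41.4%). The order of the first 6 was the same after ERRα knockdown, from Kmt2b at 4285 to Wdr5 at 758. After HCFC1 knockdown Kmt2b was again first at 568, Rbbp5 moved to second place at 354, and Setd1b (24) and Dpy30 (17) were last among the 9 members with a peak. With 1 library per condition, neighbours in these orders cannot be told apart.

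**Figure D2:**
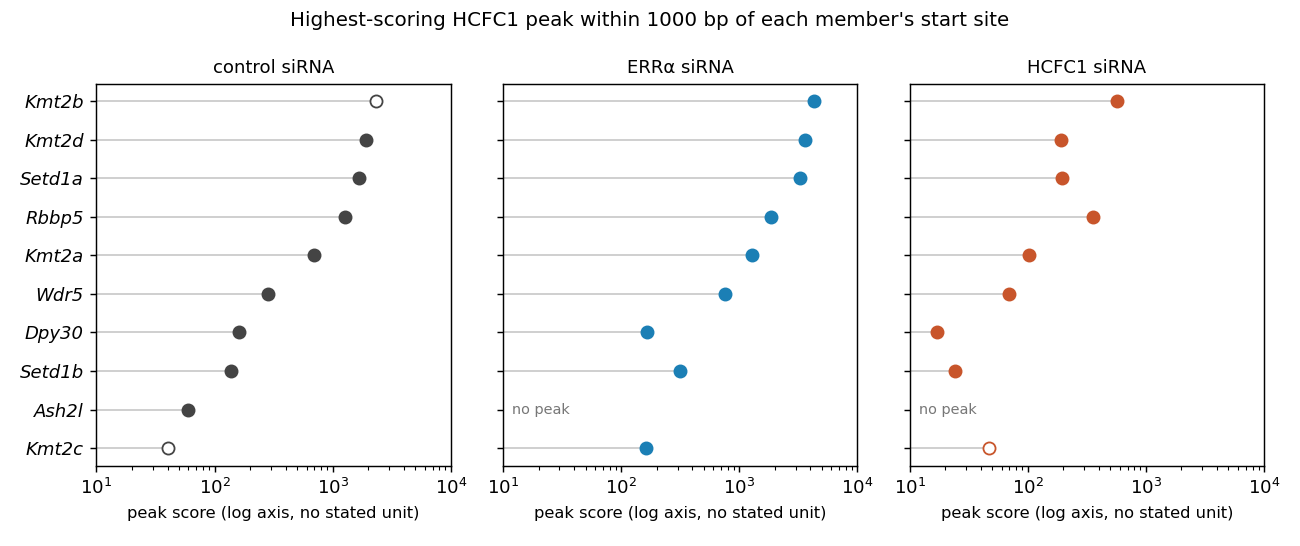
Score (log axis, no stated unit) of the highest-scoring HCFC1 peak within 1000 bp of each member's start in the 3 lists, with genes ordered by control score. Filled points are peaks the authors assigned to the member and open points peaks they assigned to a neighbouring gene; Kmt2b is highest in every list, and Ash2l has no peak after either knockdown.

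Setd1a, a catalytic subunit whose complex with HCFC1 methylates H3K4 at promoters, had the highest score among control peaks annotated to a member's promoter. The peak lay at chromosome 7, 127776443 to 127778216, with its centre at -60 bp and rank 311 among 5787 control promoter peaks. After ERRα knockdown it spanned 127776175 to 127778648 (score 3281, rank 438 of 21881), and after HCFC1 knockdown 127776691 to 127777750 (score 196, rank 927 of 12610). The start was occupied in all 3 lists, and the interval was narrowest after HCFC1 knockdown, at 1059 bp, where control had 1773 bp and the ERRα-knockdown list 2473 bp. A control peak in exon 8 of 19 (score 44) had no counterpart in either knockdown list. An ERRα-knockdown peak at -3192 bp (score 57) had none in control.

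The Setd1a promoter carried the core of the DNA element through which THAP11 and ZFP143 are known to recruit HCFC1. It is shown here because this was the only match to that core among the member promoters, none of which matched the full element. The sequence is from RefSeq (GRCm38.p6), chr7:127777139-127777388, plus strand, and ends at the base before the start; capitals mark the match, at positions -168 to -158 from the start.
Setd1a: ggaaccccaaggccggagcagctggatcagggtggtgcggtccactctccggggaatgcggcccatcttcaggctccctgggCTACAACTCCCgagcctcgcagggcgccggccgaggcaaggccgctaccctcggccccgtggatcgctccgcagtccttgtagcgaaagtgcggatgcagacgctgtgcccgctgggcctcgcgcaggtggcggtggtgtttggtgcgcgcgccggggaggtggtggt

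The element was searched on both strands as ACTACA, 2 bases of any kind and TCCCA, and no member promoter matched it in full. Its core, without the first and last base, was added after the sequences were seen. The core was found in 2% of 32851 promoters of 300 bases and in 4.58% of the 12543 promoters with a control peak within 1000 bp. The full element was found in 1.47% and 3.54%. A match describes letters and is not shown to be a site of binding.

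Rbbp5, a core subunit with WD40 repeats, had the strongest start among the 4 core genes. Its control peak lay at chromosome 1, 132476443 to 132478269, centred at -11 bp with a score of 1267 and rank 445 among control promoter peaks. The ERRα-knockdown peak (132476255 to 132478549, score 1838) ranked 890 of 21881, and the HCFC1-knockdown peak (132476715 to 132478250, score 354) ranked 557 of 12610. Its width after HCFC1 knockdown, 1535 bp, was close to the 1826 bp of control, and the authors labelled that peak, centred at 115 bp, as 5' UTR. Flanking peaks at -1608 bp (score 42) and 2714 bp (score 15) appeared in the ERRα-knockdown list only. The Rbbp5 promoter held none of the 9 motifs searched, nor the added core.

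Setd1a too matched none of the planned motifs and held only the core added after the sequences were seen. The Rbbp5 sequence is printed as a high-scoring peak on a promoter that lacks that core as well. The 250 bases of its promoter held 10 CpG pairs, where the median was 6 over all promoters, 17 over those with a control peak within 1000 bp and 25 over the member promoters. The printed sequence is chr1:132477117-132477347, plus strand, up to the base before the outermost RefSeq start, with 37.7% G and C and 9 CpG pairs.
Rbbp5: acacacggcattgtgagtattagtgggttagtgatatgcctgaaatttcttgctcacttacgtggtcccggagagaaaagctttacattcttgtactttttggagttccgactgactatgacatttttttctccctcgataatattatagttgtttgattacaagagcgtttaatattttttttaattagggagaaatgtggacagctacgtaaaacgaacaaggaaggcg

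Kmt2b, a catalytic subunit with a CXXC zinc finger, had the strongest start of all members, but in control cells that peak does not carry its name. The control peak at chromosome 7, 30587712 to 30590581 (score 2311, promoter annotation), was assigned to Mir3569, whose start lies beside that of Kmt2b. The authors gave Kmt2b's own name only to 2 weak control peaks, at exon 3 of 37 (score 40) and intron 9 of 36 (score 34). After ERRα knockdown a peak of 5654 bp (30586090 to 30591744, score 4285) was assigned to Kmt2b and covered both the Mir3569 peak and the exon 3 peak. After HCFC1 knockdown the peak assigned to Kmt2b (30588249 to 30589707, score 568) was 1458 bp wide and ranked 383 of 12610. By gene name, Kmt2b would thus seem to gain a promoter peak in both knockdowns. By position its start was covered in all 3 lists.

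Kmt2c, the catalytic subunit of an enhancer-associated complex, showed the same naming at a far weaker start. In control cells a peak at chromosome 5, 25499596 to 25500029 (score 40), was assigned to the neighbouring gene 4831440E17Rik, and a peak of Kmt2c's own lay in intron 1 (25497665 to 25498069, score 34). Neither reached the start base. A single ERRα-knockdown peak (25497606 to 25500030, score 162, 2424 bp) covered both and the start between them. After HCFC1 knockdown the nearest peak (25499225 to 25500039, score 47) was again assigned to 4831440E17Rik, and Kmt2c had no peak under its own name.

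The Kmt2c promoter had the highest G and C content of the 10 member promoters in the table, 91.6% over the 250 bases before its start, where the median was 52.4% over all promoters and 61.2% over those with a control peak nearby, and 91.6% was also the highest value over all of them. It is printed for its matches to GGGCGG, a motif of G and C only, which the factor SP1 is known to bind. Whether these matches bear on the score at this start was not tested. In chr5:25498856-25499033, minus strand, capitals mark 7 matches on either strand, of which 2 overlap.
Kmt2c: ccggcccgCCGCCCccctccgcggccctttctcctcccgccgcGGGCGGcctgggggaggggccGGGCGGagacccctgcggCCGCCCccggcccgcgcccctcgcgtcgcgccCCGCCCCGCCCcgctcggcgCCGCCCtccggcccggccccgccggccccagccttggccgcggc

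Kmt2d, the other catalytic subunit of the enhancer-associated complexes, had the widest HCFC1 peaks of the 10 genes. In control cells 1 peak of 7449 bp ran from chromosome 15, 98865596 to 98873045 (score 1923), across the start and into the gene. After ERRα knockdown it was 11589 bp wide (98862735 to 98874324, score 3606) and took in 3 control peaks. After HCFC1 knockdown the same control interval was overlapped by 5 separate peaks, of which the strongest, at the start, had a score of 190 (98870710 to 98872682). The start base was covered in every list, although the annotation reads intron 1 of 54 in control and in the ERRα-knockdown list, where the centres lie at 1885 and 2676 bp, and promoter in the HCFC1-knockdown list, where it lies at -491 bp.

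Under the name Kmt2d, a pair of peaks far inside the gene was present in both knockdown lists and not in control. After ERRα knockdown they lay at 98852250 to 98853128 (score 68) and 98853437 to 98853814 (score 16), both in exon 32 of 55. After HCFC1 knockdown they lay at 98851182 to 98852732 (exon 32, score 84) and 98853569 to 98853885 (intron 31, score 23). Their scores rank between 16.7% and 97.4% of their lists. Other peaks inside the gene were assigned to Prkag1, the neighbouring gene, so a count by name misses them. Some of these were also shared by both knockdown lists at sites without a control peak. An ERRα-knockdown peak at 98843941 to 98844820 (score 22) overlapped an HCFC1-knockdown peak at 98844213 to 98845095 (score 49). Likewise 98833921 to 98834775 (score 53) overlapped 98834239 to 98834534 (score 24). By position, the span of Kmt2d held 6 control peaks, 15 in the ERRα-knockdown list and 10 in the HCFC1-knockdown list, of which 2, 10 and 3 carried the name Prkag1. The highest-scoring of these in control (115) and after ERRα knockdown (380) lay at the start of Prkag1, at the far end of the Kmt2d span.

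These peaks covered 21.1% of the Kmt2d span in control. The covered share was 44.2% in the ERRα-knockdown list and 20.9% in the HCFC1-knockdown list. Among 9981 protein-coding genes at least as long as the shortest member (20202 bp), Kmt2d ranked 23, 10 and 4 in covered share. The median gene had 0.996%, 0.881% and 0% covered. Setd1b ranked 36, 31 and 94, with 18.4%, 28.3% and 7.48% covered. Kmt2c (0.178%, 0.551% and 0%) and Ash2l (0.88%, 0% and 0%) were the only members that did not exceed the median gene.

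Setd1b, the paralog of Setd1a, had the most control peaks assigned to any member, at 13, and its start ranked 8 of 10 in control score. These ran from -4338 to 19535 bp, with scores from 13 to 137. The start-site peak (chromosome 5, 123141690 to 123142663, score 137) was joined after ERRα knockdown with the peaks on either side into 1 peak of 2955 bp (123141176 to 123144131, score 313). After HCFC1 knockdown the start kept a peak of low rank (123141618 to 123142456, score 24, rank 9504 of 12610). The intergenic peak upstream did not follow the start in rank. It was present in all 3 lists, with a score of 100 in control (16.1% of the list), 363 after ERRα knockdown (15.2%) and 104 after HCFC1 knockdown (123138563 to 123139064, 13%). It scored above the start in both knockdown lists and below it in control.

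**Figure D3:**
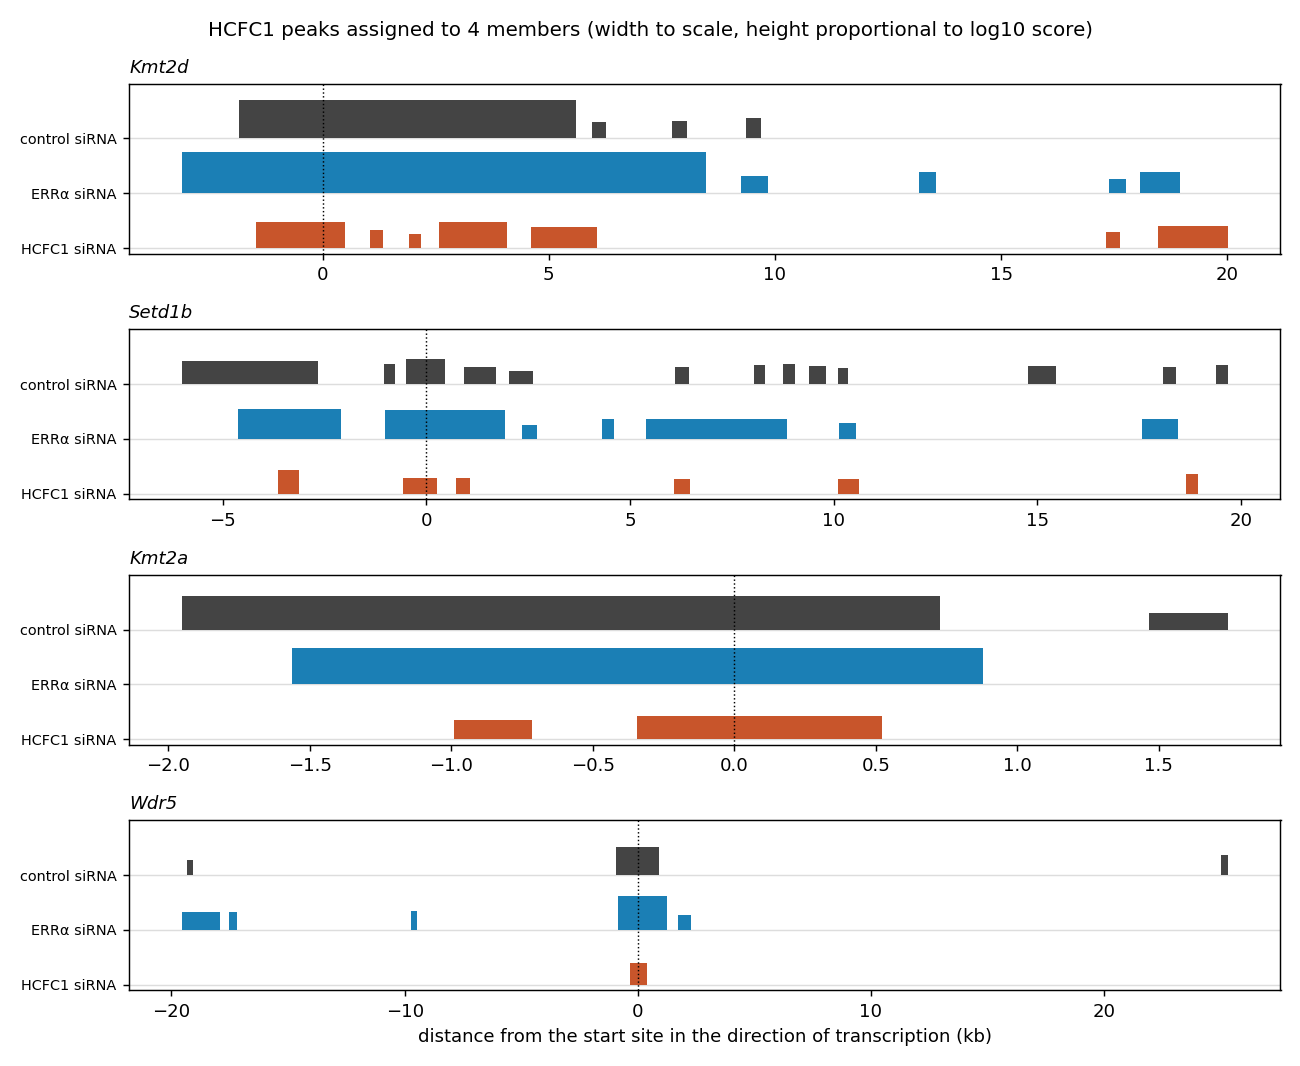
HCFC1 peaks assigned to Kmt2d, Setd1b, Kmt2a and Wdr5 in the 3 lists, with the distance from the start site in the direction of transcription in kb on the x axis. Each block is a peak, its width to scale and its height proportional to the log10 of its score; the 7449 bp control peak of Kmt2d is 1 block in control and several after HCFC1 knockdown, and the Kmt2d pair in and beside exon 32 appears in both knockdown lists and not in control.

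Kmt2a, the founding mammalian member of the family and a gene rearranged in leukaemia, had a control promoter peak at chromosome 9, 44880561 to 44883242 (score 700, rank 753 among control promoter peaks). It was a single peak after ERRα knockdown (44880409 to 44882851, score 1292) and 2 peaks after HCFC1 knockdown, at 89 bp (score 102) and -852 bp (score 47). A weak peak in intron 1 of 35 (score 27) was seen in control only.

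Wdr5, the core subunit that docks the complex on histone H3, had a control peak at chromosome 2, 27514191 to 27516063 (score 281). It was present after ERRα knockdown (27514281 to 27516386, score 758) and narrower after HCFC1 knockdown (27514823 to 27515552, score 69, 729 bp). The distal Wdr5 peaks were weaker, with control scores of 21 at -19221 bp and 56 at 25175 bp. Only the first had an ERRα-knockdown counterpart, and none remained after HCFC1 knockdown.

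Dpy30, whose small protein binds ASH2L, had a compact peak at 3 of its 4 RefSeq starts (chromosome 17, 74315866 to 74316659, score 160). The peak was present after ERRα knockdown (74316022 to 74316702, score 166) and near the foot of the list after HCFC1 knockdown (74316181 to 74316816, score 17, rank 11291 of 12610). Ash2l, which activates the catalytic subunits together with RBBP5, had 1 control peak, in intron 1 of 15 at chromosome 8, 25846592 to 25846870 (score 60, 278 bp wide, centred 963 bp from the start). Neither knockdown list held a peak for Ash2l.

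Dpy30, Kmt2c and Wdr5 shared a match to the element of NRF1, a factor of housekeeping promoters, searched as GCGC, 2 bases of any kind and GCGC. The matches are shown side by side with 10 bases on either side, capitals marking the match. They are from chr2:27515145-27515174 (plus strand), chr5:25498756-25498785 (minus strand) and chr17:74316433-74316462 (minus strand).
Wdr5: cccgcccctcGCGCACGCGCaatccctccc
Kmt2c: ccgagtgcgcGCGCCCGCGCcgatgtgtgt
Dpy30: gggccgctctGCGCAGGCGCggcggcagcg

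The NRF1 element was found in 6.23% of all promoters and in 13.6% of those with a control peak within 1000 bp, and in 3 of the 7 members in the promoter table. GGGCGG was found in 35.7% and 64.8%, and in 5 of the 7 members (Dpy30, Kmt2a, Kmt2c, Kmt2d and Wdr5). It can overlap itself and the NRF1 element. CCAAT, bound by NFY, was found in 37.4% and 36.8%, and in Dpy30 only, at a start with no peak nearby. No member held the ETS motif CCGGAAG (8.86% and 18.4%), the YY1 motif (AAGAT followed by GGCGGC, 0.633% and 1.57%), the ERRα motif TCAAGGTCA (0.423% and 0.231%), the CREB motif TGACGTCA (1.79% and 3.07%) or the E-box CACGTG (7.15% and 10.5%). All were searched on both strands, from 250 bases before to 50 bases after each start.

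By an overlap of any length, more of the members' control peaks were found again after ERRα knockdown than after HCFC1 knockdown. By the distance between peak centres the counts were close, at 5 and 7 of 30. In the ERRα-knockdown list, 23 of the 30 (76.7%, 57.7 to 90.1%) had an overlap of 1 bp or more, where all control peaks had 40.6%. With each list cut to its 12610 highest-scoring peaks, the members' share was 10 of 13 (76.9%), near the 71.8% of all control peaks. In the HCFC1-knockdown list 12 (40%, 22.7 to 59.4%) were overlapped, where all control peaks had 22.3%. All 12 were also among the 23, 11 were found after ERRα knockdown only, and 7 in neither list. Peaks of 1 gene are not independent and Setd1b held 13 of the 30. Single ERRα-knockdown peaks of Kmt2d (11589 bp) and Setd1b (2955 and 3446 bp) each overlapped 3 control peaks, which the interval counts separately. Without Setd1b the counts were 13 of 17 (76.5%, 50.1 to 93.2%) and 7 of 17 (41.2%, 18.4 to 67.1%). The second interval includes the 22.3% of all control peaks. So does the HCFC1-knockdown interval without Kmt2d (10 of 26, 20.2 to 59.4%). With centres within 200 bp, 5 of 30 member peaks (16.7%) were found again after ERRα knockdown, against 22.1% of all control peaks, and 7 of 30 (23.3%) after HCFC1 knockdown, against 13.3%. At promoters this measure gave 3 of 7 (42.9%, against 49.7%) and 4 of 7 (57.1%, against 32.9%). With a reciprocal overlap of 50%, 30% of member peaks and 25.2% of all control peaks were found after ERRα knockdown.

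At annotated promoters the members' shares have wide intervals. All 7 control promoter peaks (59 to 100%) were overlapped after ERRα knockdown, against 88.2% of all control promoter peaks, and 6 of 7 (85.7%, 42.1 to 99.6%) after HCFC1 knockdown, against 55.6%. The exception was the upstream Setd1b peak at -894 bp (score 48). All control promoter peaks were split by score into 10 bins of near-equal size. In the bin of that peak (37 to 50), 27.3% were overlapped after HCFC1 knockdown. The share was 71.3% in the bin that holds Dpy30 and the Setd1b start (137 to 208), 84.6% in that of Wdr5, 96.9% in that of Kmt2a and 99.8% in that of Rbbp5 and Setd1a. In the 4 highest bins, all control promoter peaks were overlapped after ERRα knockdown.

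Outside promoters the members' peaks were kept in 16 of 23 cases (69.6%, 47.1 to 86.8%) after ERRα knockdown, against 31.5% of all such control peaks. Among the 16 were peaks of Kmt2b, Kmt2c, Kmt2d and Setd1b that lay inside a wider ERRα-knockdown peak covering the gene's start. The highest-scoring of the 16, the Kmt2d peak of score 1923, itself covered a start and counts here by its intron label. After HCFC1 knockdown 6 of 23 were kept (26.1%, 10.2 to 48.4%), against 15.9%, which lies within the interval. The 7 that went missing after ERRα knockdown were 1 peak each of Kmt2a, Setd1a, Wdr5 and Ash2l and 3 of Setd1b. Their control scores ran from 27 to 60 with a median of 42, above the median of 34 of the 16 kept, whose scores ran from 13 to 1923. The 17 missing after HCFC1 knockdown had scores from 13 to 60 with a median of 37, also above the median of 29 of the 6 kept (24 to 1923).

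**Figure D4:**
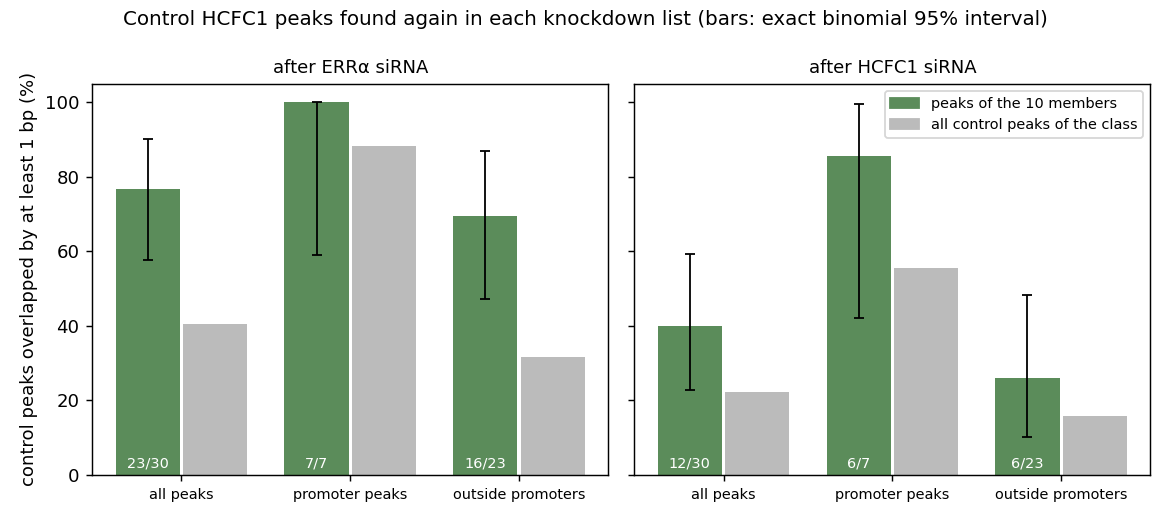
Share of control HCFC1 peaks (%) overlapped by at least 1 bp in the ERRα-knockdown and the HCFC1-knockdown list, for all peaks, promoter peaks and peaks outside promoters. Green bars are the members' peaks with exact binomial 95% intervals and counts, grey bars all control peaks of that class; the members lie above the grey bar in each of the 6 pairs, and 2 intervals at promoters and 1 outside them include it.

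Peaks without a control counterpart were also counted. Of the members' 29 ERRα-knockdown peaks, 12 (41.4%, 23.5 to 61.1%) had no overlapping control peak, close to the 40.5% of the whole list. Of their 20 HCFC1-knockdown peaks, 3 (15%, 3.21 to 37.9%) had none, against 34.1%, which lies within the interval. These 3 were the Kmt2d pair described above and a peak in exon 12 of 17 of Setd1b (123160846 to 123161148, score 47).

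By rank in the 3 lists, the genes most like Setd1a were Unc50, Zfp661 and Ccdc124. Likeness was the largest difference in rank percentile of the highest promoter peak over the 3 lists, among 1594 genes with a promoter-annotated peak in each. Setd1a stood at 5.57%, 5.41% and 16.7% by this measure. Among all peaks of each list, the same peaks ranked at 1.29%, 2% and 7.35%. The largest difference was 1 percentage point for Unc50 and 1.6 for each of the others.

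The class-specific subunits and partners of the complexes had peaks as well. All 12 genes on this list had one in control (57.7% of all protein-coding genes), and 10 had one centred within 1000 bp of a start (44.2% of all), with 9 after ERRα knockdown (45.1%) and 7 after HCFC1 knockdown (29.3%). By promoter annotation the counts were 6, 3 and 4 of 12, against 23.5%, 22.3% and 15.3% of all genes. The count of 3 is 25% (5.49 to 57.2%), close to the share over all genes. The highest control scores belonged to Cxxc1, the CpG-binding subunit of the SETD1 complexes (3546), Bod1 (2556), Hcfc1 itself (1924), Men1, the menin subunit of the KMT2A and KMT2B complexes (1672), the paralog Hcfc2 (511), Bod1l (397) and Psip1, a menin partner (217). Lower scores were found for 4 genes of the KMT2C and KMT2D complexes, Ncoa6 (202, at -32771 bp), Paxip1 (201), Pagr1a (165) and the demethylase Kdm6a (61), and for the SETD1 subunit Wdr82 (64).

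By gene name, the genes of that list without a peak after a knockdown had highest control scores from 61 to 1924. After ERRα knockdown 11 of 12 had a peak, all but Ncoa6, against 52.5% of all protein-coding genes. After HCFC1 knockdown 7 of 12 had one, against 36.7%. In that list no peak carried the name of Hcfc1, Ncoa6, Pagr1a, Wdr82 or Kdm6a. Overlap by position is not given for these genes, so a peak under a neighbour's name would be missed. Of the 579 control promoter peaks with scores of 971 or more, as that of Hcfc1 had, 578 were overlapped after HCFC1 knockdown. The highest peak of Cxxc1 then had a score of 103 (rank 1650 of 12610), after rank 123 of 36147 in control. Bod1 kept a high rank (428, rank 467 of 12610), as did Men1 (284, rank 665).

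Genes that remove H3K4 methylation had control scores of at most 131, counting peaks under their own names. The start-site scores of 8 members were higher, but those count peaks under any name. Kmt2b is among the 8, and the highest control peak under its own name had a score of 40. Of 6 demethylase genes, 4 had a control peak centred within 1000 bp of a start, with scores of 131 (Kdm5b), 117 (Kdm1a), 91 (Kdm5c) and 70 (Kdm1b). The same 4 had one after ERRα knockdown, and 5 of 6 after HCFC1 knockdown. Over all protein-coding genes the shares were 44.2%, 45.1% and 29.3%. By gene name, Kdm5a had a peak after HCFC1 knockdown only (score 126), and Kdm5d had none in any list. Of 7 other methyltransferase genes, 4 had such a control peak (Smyd2, 131; Setd7, 129; Smyd3, 97; Prdm9, 50), and the peak of Smyd1 (62) lay 26802 bp from its start. The counts were 4 of 7 after ERRα knockdown and 3 of 7 after HCFC1 knockdown, beside the same shares over all genes. By name, Kmt2e had a peak after HCFC1 knockdown only (score 28), and Ash1l had none.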

How the data were processed

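The deposited files are annotated peak lists for the 3 HCFC1 libraries. Per the submitters' processing notes, the build was mm10 and the tools were HOMER 4.11.1, MACS2 2.1.1.20160309, BWA 0.7.12 and Picard 2.0.1, without their roles. The authors deposited a peak score as a whole number of unstated scale, with positions, an annotation and a distance to the nearest transcription start per peak, per the file headers. The use of the IgG libraries is not given in these sources.

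Peaks of the members were found by the deposited gene name. The members, lists, motifs and alternatives were chosen with earlier results of these data known. By the rule, the text names all members, genes of the other lists with a promoter peak in control, and the 3 genes nearest by rank to Setd1a, whose control peak scored highest among those carrying a member's name and a promoter annotation. Other genes of those lists were named after their values were seen. Peaks were compared by overlap (Python 3.11.15, pandas 2.3.3, scipy 1.17.1), tested on simulated peaks. With 1 library per condition no test was run. Alternatives were reciprocal overlap of 50%, centres within 200 bp, the higher-scoring 50%, lists of equal length, merging within 500 bp, and other promoter definitions. Gene identifiers, starts and sequences came from RefSeq GRCm38.p6, the assembly behind mm10. A planned search of member proteins for the HCFC1-binding motif was not run. The result for 1 hepatocyte marker gene is not reported here.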

Additional observations from a re-analysis of the deposited data

How the results depend on the processing

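Counts of members with any peak stayed within 1.5 times under each alternative. The count with a promoter peak in control rose from 6 to 10 with a distance limit of 5000 bp, and to 10 with any peak within 1000 bp of a start (added after the data were seen). For the other subunits, distance limits of 1000 and 5000 bp gave 10 and 11 of 12 in control (6 by annotation), 9 and 11 after ERRα knockdown (3), and 7 with either limit after HCFC1 knockdown (4).

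Overlap depended on its definition. With reciprocal overlap of at least 50%, the share of member control peaks found again was 30% after ERRα knockdown and 16.7% after HCFC1 knockdown (25.2% and 11.8% of all control peaks). With centres within 200 bp it was 16.7% after ERRα knockdown (22.1% of all) and 23.3% after HCFC1 knockdown (13.3%). At promoters these were 3 of 7 (42.9%, against 49.7% of all) and 4 of 7 (57.1%, against 32.9%). With so few peaks, no order between the members and the whole list is read from the centre distances. With lists of equal length, 76.9% were found after ERRα knockdown (71.8% of all) and 61.5% after HCFC1 knockdown (51.1% of all). With peaks merged, 100% of promoter peaks were found after HCFC1 knockdown. In all, 42 of 56 alternative values stayed within their limits. The unknown depth and the single library per condition limit every comparison between lists. No paired analysis was possible because each condition has 1 library and no result comes from a test.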
